A study of Homo sapiens with 18 samples.

Results

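CAL-29, a line established from a urinary bladder carcinoma, was examined for genes whose level followed the overexpression of AP-2α or AP-2γ. Of the 18 CAGE-seq libraries of the study, 5 CAL-29 libraries were used, and the other lines, RT-112 and HT-1376, had 6 libraries each. CAGE-seq reads the capped 5′ ends of RNA, and each gene had a value in CPM, a read count scaled to the size of the library. KK cells had received blank control lentivirus in the first and the second stable transduction. KA cells had the blank control and then AP-2α, WK cells WWOX and then the blank control, WA cells WWOX and then AP-2α, and WC cells WWOX and then AP-2γ. All 5 populations had therefore been transduced and antibiotic-selected, with the transgenes driven by a viral CMV promoter, and all grew in DMEM with serum. KA was paired with KK, and WA and WC with WK, so that by the labels AP-2 was the difference within each of the 3 pairs. The pairs WA/WK and WC/WK share the WK library. Genes with at least 5 CPM in 1 or more of the 5 libraries were retained, which kept 12078 of 16575 genes, and differences were taken on log2(CPM + 0.5). At the limit of this filter, MILIP and RAP2A (highest value 5.02 CPM) were retained and SUCLG2-DT and ATAD5 (4.99 CPM) were not. AP-2 without WWOX is represented by AP-2α alone, since the library labelled CAL-29 KC (control, then AP-2γ) was left out. Its median correlation with the CAL-29 libraries was 0.741, against 0.9398 with those of HT-1376, and 46 of 47 genes that mark HT-1376 reached 10% of their level in HT-1376 KK, against 0 or 1 of 47 in the 5 libraries used. The markers were defined in the KK libraries. Of 68 CAL-29 markers, 56 to 65 reached 10% of their KK level in KA, WK, WA and WC, with a median of 37.3% of that level in WC and 66.9% to 83.1% in the others.

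AP-2α and AP-2γ, encoded by TFAP2A and TFAP2C, are transcription factors that bind GC-rich palindromes as dimers and act in the development of skin, neural crest and placenta. In epithelia they take part in the expression of keratins and of growth factor receptors. WWOX is a tumour suppressor whose WW domains bind partner proteins, AP-2 factors among them. The urothelium is described by luminal genes such as uroplakins, GATA3 and PPARG, which mark the mature upper layers, and by basal genes such as KRT5 and TP63. Squamous differentiation adds the cornified envelope proteins and the keratins of stressed epidermis.

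The 5 libraries held 16773240 to 17292683 reads on genes, recovered from the deposited values, and 3 reads, the limit for a gene listed without reads, were worth 0.164 to 0.169 CPM (counting error only). The epithelial genes EPCAM, KRT7, KRT8, KRT18, KRT19, CDH1 and GATA3 were present in each library and summed to 4836 to 8097 CPM. Markers of leukocytes summed to 11.4 to 15.9 CPM, nearly all of it CD68, and markers of fibroblasts and endothelium to 5.63 to 17.99 CPM, mostly COL1A1. Heat shock genes summed to 4759 CPM in WC and to 1694 to 2598 CPM in the others. The sum in WC was mostly HSPB1 (3266 CPM) and HSPE1 (1154 CPM), and BAG3 was also highest there (104.7 CPM). In WC, HSPA1A, HSPA1B, DNAJB1 and HSPH1 were within the range of the other libraries, and HSPA6 and HSPD1 were lowest. The part of these genes in the values of WC was not tested. Each variant had 1 library, so the spread below is between libraries of different pairs, and fewer cells expressing a gene and less RNA per cell cannot be told apart.

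The transduced genes were read first. TFAP2A stood at 35.4 and 49.9 CPM in KK and KA, and at 61.7 and 86.7 CPM in WK and WA, 1.41-fold higher with AP-2α in both pairs. In WC, the AP-2γ library, TFAP2A was at 31.7 CPM, 0.514-fold of WK. TFAP2C was at 339 CPM in WC against 93.1 CPM in WK, 3.64-fold higher, while KK, KA and WA held 88.0, 70.3 and 79.9 CPM. WWOX was 2.43-fold higher in WK (155 CPM) than in KK (63.7 CPM), and stood at 69.3 CPM in WA and 62.4 CPM in WC, close to KK. Thus TFAP2A and TFAP2C were each higher with their transgene than in the paired control, but the WA and WC libraries did not show the WWOX level of WK. For TFAP2A the 1.41-fold was less than the 1.74-fold of WK over KK, neither of which had received AP-2α, and WK lay above KA. The TFAP2A values are therefore a weak check of the AP-2α labels. WWOX was thus 0.447-fold of WK in WA and 0.403-fold in WC, and in these pairs a difference with AP-2 cannot be told apart from a difference with the lower WWOX level. No test of these single genes is given, since 3 libraries against 2 allow no exact permutation p under 0.1 and the 3 AP-2 libraries mix AP-2α with AP-2γ. A transcript from a viral vector need not be counted at the native start of the gene, so these values are a partial check of the labels.

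**Figure D1:**
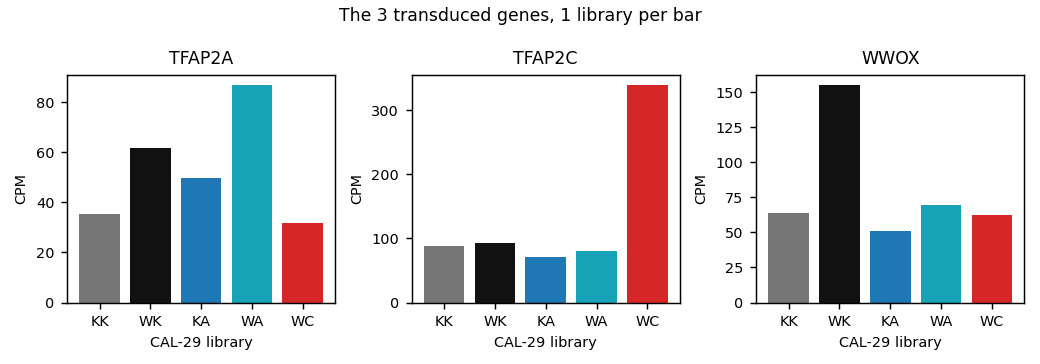
CPM of TFAP2A, TFAP2C and WWOX (vertical axes, linear from 0) in the 5 CAL-29 libraries (horizontal axes, 1 library per bar, so no error bar). TFAP2C stands at 339 CPM in WC and at 70.3 to 93.1 CPM in the other 4, and WWOX at 155 CPM in WK and at 51.3 to 69.3 CPM in the other 4.

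Among the 12078 genes, 1097 (9.08%) were higher in the AP-2 library of all 3 pairs, and 1736 (14.4%) were lower in all 3. At least 1.5-fold in each pair, 134 genes were higher (1.11%) and 184 lower (1.52%), and at least 2-fold, 51 and 41. These counts have no level expected without a difference beside them, and WA/WK and WC/WK share WK, so that no AP-2 effect is read from a count. In simulated data with 200 changed genes among 12078, the 1.5-fold rule kept 125 changed and 689 unchanged genes. That simulation used the same dispersion for all genes and no WWOX difference, so its shares need not hold in the 5 libraries. By the smallest of the 3 differences, among genes at 5 CPM or more in each library of the higher side, SPRR1B, KLK5, SULF2, KRT6A and S100A7 came first of the higher genes and ATP1A4, TNFSF10, PPM1H and GPC3 of the lower. No gene passed an adjusted p of 0.05 in limma with a term for WWOX (lowest adjusted p 0.9995). At an unadjusted p under 0.05 limma had 199 genes. None passed in limma-voom (293 unadjusted) or edgeR (283). DESeq2 on the recovered reads called 46 higher and 6 lower genes, 49 of which were among the 318 with 1.5-fold differences. Both sets come from the same 5 libraries and the same contrast, so this overlap is no separate support. The values below are therefore descriptions of 5 libraries. After TMM scaling, 1718 genes were higher and 1281 lower in all 3 pairs, so that the higher genes made up 57.3% of them against 38.7% on the deposited scale, and at 1.5-fold the counts were 192 and 129 (106 higher and 101 lower genes shared with the deposited scale). The median over all genes was -0.25 in KA/KK, 0.22 in WA/WK and -0.38 in WC/WK on the deposited log2 scale and 0.08, 0.02 and -0.02 after TMM. DUSP14 (smallest of the 3 log2 differences 0.5852) and DIP2C (-0.587) were just inside the 1.5-fold limit, and SPRY4 (0.5850) and NEMP2 (-0.584) just outside.

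SPRR1B (ENSG00000169469, chr1:153031203-153032900 of GRCh38), a precursor of the cornified envelope, came first. The controls KK and WK held 0.95 and 2.60 CPM, and the AP-2 libraries KA, WA and WC 31.2, 92.1 and 635 CPM. Its AP-2 difference in the limma fit was 5.503 ± 0.89 (SE, log2, 5 libraries, adjusted p = 0.9995). KRT6A, a keratin of wounded and hyperproliferative epidermis, stood at 0.50 and 2.49 CPM in KK and WK against 12, 16.4 and 211 CPM in KA, WA and WC. The AP-2 libraries did not overlap the controls for either gene. S100A7 (psoriasin), an antimicrobial protein of inflamed skin, stood at 1.51 and 42.4 CPM in KK and WK, and at 341, 200 and 1142 CPM in KA, WA and WC, so that its log2 difference ranged from 2.23 in WA/WK to 7.41 in KA/KK. KRT6A and S100A7 have near-identical copies (KRT6B and KRT6C, S100A7A), between which reads may be split. KLK5, the protease that starts the kallikrein cascade of skin shedding, had 0.34 CPM in KK and a single read (0.06 CPM) in WK, against 9.51, 6.87 and 54.9 CPM in KA, WA and WC. KLK8, another protease of that cascade, was at 24.6 and 2.04 CPM in KK and WK and at 93.8, 22.9 and 47.9 CPM in KA, WA and WC, and here KK lay above WA, so that the groups overlapped although each pair had the same sign.

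Other leading higher genes were enzymes and regulators of the cell surface and of transcription. SULF2, an extracellular 6-O-endosulfatase that edits heparan sulfate, was at 1.96 and 0.77 CPM in KK and WK and at 19.7, 27.4 and 36.2 CPM in KA, WA and WC. Its pairs differed by 3.04, 4.46 and 4.85, a narrower range than in the squamous genes, and the limma difference was 3.96 ± 0.61 (SE, log2, adjusted p = 0.9995). ARSI, a sulfatase of the same enzyme class, was at 8.74 and 9.12 CPM in the controls and 38.9 to 59.7 CPM in the AP-2 libraries. FOSL1, which encodes the AP-1 subunit FRA-1, was at 24.7 and 11.99 CPM in KK and WK and at 122, 47.9 and 94.0 CPM in KA, WA and WC. HES2, a bHLH repressor, stood at 20.4 and 23.9 CPM against 107, 94.3 and 239 CPM. SOX9, a transcription factor of progenitor cells, stood at 13.5 and 2.10 CPM against 45.9, 44.2 and 38.1 CPM. All 3 transcription factors were higher in each AP-2 library than in either control. KANK4 was at 1.91 and 2.71 CPM against 9.23, 10.9 and 26.2 CPM, without overlap. These are 11 of the 12 higher genes with the largest smallest difference.

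The 12 lower genes ran the other way, with a smallest log2 difference among the pairs of 1.33 to 1.74 in size, against 1.73 to 4.45 in the higher genes. TNFSF10, which encodes the death ligand TRAIL, stood at 27.7 and 5.25 CPM in KK and KA, and at 110 CPM in WK, 34.6 CPM in WA and 12.7 CPM in WC. Its limma difference was -2.33 ± 0.53 (SE, log2, adjusted p = 0.9995), and WA lay above KK, so that the groups overlapped. IGFBP2, which binds insulin-like growth factors, was at 33.5 and 81.5 CPM in KK and WK and at 11.9, 5.73 and 10.8 CPM in KA, WA and WC. SOX2, a transcription factor of stem and progenitor cells, was at 13.1 and 48.6 CPM against 4.53, 4.91 and 9.28 CPM. For IGFBP2 and SOX2 every AP-2 library lay under both controls. SOX2-OT, a long RNA whose gene contains SOX2, had almost the same values (14.0 and 49.1 CPM against 5.09, 5.62 and 9.28 CPM), and the reads of the overlapping genes may not be separable. GPC3, a glypican that carries heparan sulfate, was at 11.8 and 19.8 CPM against 3.70, 4.47 and 0.51 CPM, and HS6ST2, which adds 6-O-sulfate to heparan sulfate, at 13.6 and 14.9 CPM against 4.98, 5.56 and 5.62 CPM. HS6ST2 had the most even differences of the 24 leading genes (-1.365, -1.347 and -1.333). METTL7A, a methyltransferase of lipid droplets, reached 132 CPM in WK and was at 15.2 CPM in KK, against 5.75, 24.4 and 36.4 CPM in KA, WA and WC, so that here WA and WC lay above KK. The others were ATP1A4, a sodium pump subunit (7.34 and 29.1 CPM against 1.27, 8.35 and 1.12 CPM), the phosphatase PPM1H (6.73 and 20 CPM against 1.88, 4.91 and 2.53 CPM), LUZP2 (16.0 and 13.7 CPM against 1.11, 4.64 and 2.42 CPM), the potassium channel KCNK5 (8.41 and 16.9 CPM against 2.76, 3.87 and 1.24 CPM) and the non-coding LINC01451 (5.38 and 5.97 CPM against 1.82, 1.31 and 0.84 CPM).

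**Figure D2:**
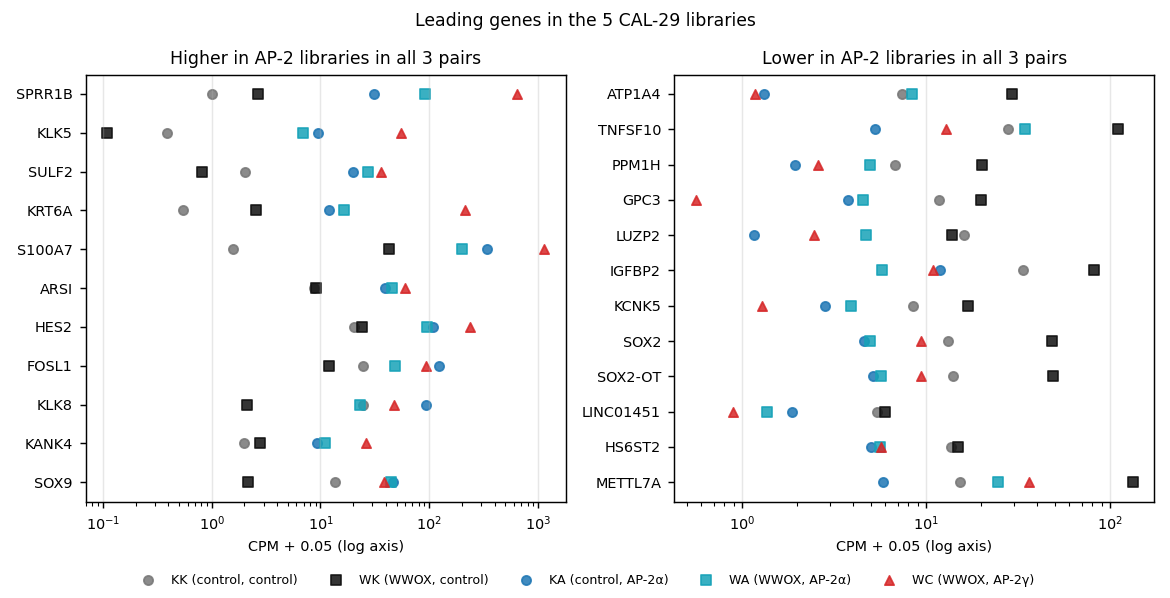
CPM + 0.05 (horizontal axes, log scale) of 11 higher and 12 lower genes (rows) in the 5 CAL-29 libraries, 1 point per library. The controls KK and WK lie to the left for the higher genes, as for SPRR1B (0.95 and 2.60 CPM against 31.2 to 635 CPM), and to the right for the lower genes, as for SOX2 (13.1 and 48.6 CPM against 4.53 to 9.28 CPM), with overlap for KLK8, TNFSF10 and METTL7A among others.

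The promoters of these genes were searched for the AP-2 palindrome GCCNNNGGC, which has the same pattern on both strands, in RefSeq windows of 300 bases (250 before to 50 after an annotated start, GRCh38.p14). Of the 24 leading genes 17 had a window, and 3 of 7 higher and 2 of 10 lower genes held the motif. The 250 bases before the start are shown 5′ to 3′ for these 5 genes and for SPRR1B, the leading gene, in whose window these letters were not found, with the motif in capitals. They are SPRR1B (chr1:153030953-153031202, + strand), SULF2 (chr20:47785482-47785731, - strand, 1 of its 4 windows), S100A7 (chr1:153460652-153460901, - strand), HES2 (chr1:6419920-6420169, - strand), LUZP2 (chr11:24496803-24497052, + strand) and SOX2 (chr3:181711675-181711924, + strand).
SPRR1B: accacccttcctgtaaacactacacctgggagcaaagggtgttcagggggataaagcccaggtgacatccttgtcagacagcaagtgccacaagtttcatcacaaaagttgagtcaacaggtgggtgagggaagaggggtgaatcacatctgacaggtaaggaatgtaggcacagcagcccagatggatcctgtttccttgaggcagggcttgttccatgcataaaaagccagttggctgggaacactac
SULF2: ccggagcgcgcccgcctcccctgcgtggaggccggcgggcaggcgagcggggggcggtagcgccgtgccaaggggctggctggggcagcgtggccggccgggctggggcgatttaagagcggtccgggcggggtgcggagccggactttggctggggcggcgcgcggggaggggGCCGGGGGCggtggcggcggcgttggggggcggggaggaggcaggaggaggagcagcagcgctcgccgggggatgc
S100A7: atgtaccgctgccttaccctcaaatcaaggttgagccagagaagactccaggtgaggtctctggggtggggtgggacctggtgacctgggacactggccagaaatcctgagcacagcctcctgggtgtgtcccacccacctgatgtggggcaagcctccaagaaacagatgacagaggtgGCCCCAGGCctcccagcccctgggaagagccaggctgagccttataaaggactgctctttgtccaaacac
HES2: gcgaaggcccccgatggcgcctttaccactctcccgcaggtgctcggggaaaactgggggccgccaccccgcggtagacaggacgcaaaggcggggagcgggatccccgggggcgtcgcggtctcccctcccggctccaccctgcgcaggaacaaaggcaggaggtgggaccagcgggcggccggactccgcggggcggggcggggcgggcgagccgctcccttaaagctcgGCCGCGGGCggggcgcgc
LUZP2: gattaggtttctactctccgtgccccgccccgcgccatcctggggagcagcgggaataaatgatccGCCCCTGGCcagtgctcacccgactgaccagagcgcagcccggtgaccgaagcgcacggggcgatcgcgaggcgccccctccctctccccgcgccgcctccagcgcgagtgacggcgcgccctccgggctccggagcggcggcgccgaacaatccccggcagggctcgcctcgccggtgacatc
SOX2: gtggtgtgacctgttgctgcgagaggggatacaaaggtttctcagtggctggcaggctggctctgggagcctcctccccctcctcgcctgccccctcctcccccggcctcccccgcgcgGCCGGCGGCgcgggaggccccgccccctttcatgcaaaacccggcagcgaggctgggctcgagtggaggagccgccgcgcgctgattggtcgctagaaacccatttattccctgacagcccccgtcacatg
The first base of the motif lay 76 bases before the start in the SULF2 window shown, and another SULF2 window (chr20:47786047-47786346) held it 18 bases after the start. In S100A7 it lay 70 bases before the start, in HES2 18, in LUZP2 184 and in SOX2 131. Over all 1.5-fold genes, 36 of 116 windows of the higher genes (31.0%, 82 of 134 genes matched) and 74 of 254 windows of the lower genes (29.1%, 138 of 184 matched) held it, beside 31.5% of the windows of all genes tested and 23.2% of all 35116 windows. The letters were thus about as frequent near genes of either direction as near the genes tested.

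Gene lists were then read by the number of members with the same sign in all 3 pairs, beside 9.08% higher and 14.4% lower over all genes. A member at 5 CPM or more only in AP-2 libraries, or only in controls, passed the filter through that side. Such a member could hardly count the other way. Of 18 basal and squamous genes, 10 were higher in all 3 pairs and 1 lower, with 8 higher by 1.5-fold and a median AP-2 difference of 2.25 (log2), against -0.20 over all genes. Among these 8, SPRR1B, KRT6A, KRT6B, KRT16 and SPRR2A reached 5 CPM only in AP-2 libraries, so that they could hardly count as lower. KRT17, a basal keratin, was at 292 and 184 CPM in KK and WK and at 780, 390 and 920 CPM in KA, WA and WC, without overlap. KRT5, the keratin of basal cells, stood at 20.9 and 24.9 CPM against 48.7, 36.5 and 156 CPM. S100A8, a calprotectin subunit, ranged widely, from 32.3 CPM in KK over 1179 CPM in WK to 5337 CPM in KA, 1883 CPM in WA and 10430 CPM in WC. KRT16 (0.50 and 0.28 CPM in the controls, 2.40 to 22.5 CPM with AP-2), KRT6B and SPRR2A were low, and the last pair had no read in WK, so that no fold is given. The member that ran the other way was TP63, the master regulator of basal cells, with 96.6 and 269 CPM in KK and WK and 82.2, 111 and 218 CPM in KA, WA and WC. The adhesion genes of the list, CD44, DSC3 and DSG3, were lower in KA/KK and higher in WA/WK and WC/WK.

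Luminal genes ran downward more often in WA/WK and WC/WK, the pairs that share WK. None of 19 was higher in all 3 pairs, 7 were lower (ELF3, FOXA1, GATA3, KLF5, KRT7, SNX31 and UPK3A), and the median difference was -0.74 (log2). Of these, SNX31 passed the filter only through WK, so that it could hardly count as higher. GATA3, the luminal transcription factor, stood at 162 and 102 CPM in KK and KA, and at 370 CPM in WK against 226 CPM in WA and 93.8 CPM in WC. FOXA1 stood at 66.0 and 56.8 CPM in KK and KA and at 176, 124 and 63.0 CPM in WK, WA and WC. The pairs were unequal, since the median of the list was 0.06 in KA/KK, -0.65 in WA/WK and -1.48 in WC/WK, and only 1 of 19 genes was higher in WC/WK (FABP4) against 10 in KA/KK. UPK1B, a uroplakin, shows the difference in direction, with 20.6 CPM in KK and 97.7 CPM in KA but 560 CPM in WK and 172 and 500 CPM in WA and WC. In WK, which had not received AP-2, GATA3, FOXA1 and UPK1B thus stood above KK, and WWOX was 2.43-fold higher. The part of the WK values in the downward direction of the list was not tested. After TMM scaling, 1 luminal gene was higher and 5 were lower, and 11 basal and squamous genes were higher and 0 lower, while GATA3 (-0.32 in KA/KK) and S100A8 (0.47 in WA/WK) no longer passed 1.5-fold.

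Sterol and lipid synthesis also had many higher members. Of its 24 genes, 14 were higher in all 3 pairs and 1, SC5D, was lower, with a median of 0.75 (log2) and 5 genes past 1.5-fold, among them DHCR7, FASN and MVD, which missed 1.5-fold in WA/WK after TMM scaling (0.49, 0.57 and 0.54). DHCR7, the last step of cholesterol synthesis, was at 35.7 and 23.5 CPM in KK and WK and at 120, 38.2 and 177 CPM in KA, WA and WC. MVD was at 31.1 and 23.4 CPM against 88.1, 39.4 and 63.0 CPM, without overlap. SCD, the stearoyl-CoA desaturase, stood at 680 and 835 CPM in KK and KA but at 149 CPM in WK against 651 and 732 CPM in WA and WC, so that most of its difference was in the WWOX background. SREBF1 and SREBF2, which encode the factors that activate these genes, were higher in all 3 pairs by 0.27 to 0.75 (log2).

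Some growth factor ligands were higher while receptors were not. Among 12 ERBB receptors and ligands, AREG, EREG and HBEGF were higher by 1.5-fold in all 3 pairs and ERBB3 was lower. HBEGF was at 8.58 and 4.42 CPM in KK and WK and at 27.5, 28.0 and 19.6 CPM in KA, WA and WC, without overlap, and its limma difference was 1.999 ± 0.49 (SE, log2, adjusted p = 0.9995). AREG stood at 150 and 16.6 CPM against 233, 222 and 132 CPM, and EREG at 12.3 and 0.55 CPM against 32.7, 22.7 and 8.49 CPM, both with WC under KK. EGFR was lower in KA/KK and WC/WK and higher in WA/WK (211 and 124 CPM in KK and WK, 123, 280 and 109 CPM in KA, WA and WC). Of 14 genes of FGF signalling and ERK feedback, 6 were higher and 3 lower. The higher ones included the ERK-responsive ETV4 (12.9 and 2.87 CPM against 27.4, 11.7 and 11.8 CPM) and PHLDA1, and the lower ones the receptors FGFR2 (17.9 and 47.9 CPM against 11.7, 25.4 and 14.8 CPM) and FGFR3 (5.44 and 37.5 CPM against 3.04, 15.3 and 12.9 CPM). Both receptors were highest in WK, WA lay above KK for each, and after TMM scaling neither passed 1.5-fold in KA/KK (-0.26 and -0.44). FOSL1, MYC and CCN1, of 21 immediate early and AP-1 genes, were higher by 1.5-fold, MYC at 49.4 and 23.9 CPM against 93.1, 76.2 and 54.5 CPM.

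Matrix proteases and their inhibitors had 9 of 20 members higher in all 3 pairs and 2 lower. MMP1, the interstitial collagenase, was at 0.34 and 0.28 CPM in the controls and at 7.08, 4.85 and 7.48 CPM in KA, WA and WC. MMP9 had no read in WK and 0.56 CPM in KK, and stood at 1.77, 3.16 and 54.7 CPM, so that its level with AP-2γ was far above that with AP-2α. MMP1 and MMP9 passed the filter only through AP-2 libraries. PLAU, the urokinase, and its receptor PLAUR were higher by 0.38 to 1.76 (log2). Among 25 integrins, laminins and collagens, 2 were higher and 5 lower, with COL12A1 (147 and 28.7 CPM against 18.4, 14.5 and 6.86 CPM), COL4A5 and LAMB1 lower by 1.5-fold. In the TGF-β, activin and BMP list (25 genes), the activin subunits INHBA and INHBB and BMP7 were higher by 1.5-fold, and BMP4, the inhibitory SMAD6 and the co-receptor TGFBR3 were lower. After TMM scaling 1 of these 3, TGFBR3, stayed past 1.5-fold, with BMP4 at -0.36 and SMAD6 at -0.28 in KA/KK. INHBB and BMP7 passed the filter only through AP-2 libraries, and TGFBR3 only through WK. INHBA was at 3.81 and 11.49 CPM in KK and WK and at 16.0, 24.8 and 63.0 CPM in KA, WA and WC, and SMAD6 at 24.7 and 97.1 CPM against 15.9, 22.9 and 33.8 CPM. DKK1, a secreted WNT inhibitor, was at 62.7 and 45.4 CPM against 121, 129 and 346 CPM.

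Genes commonly listed as AP-2 targets showed little of one direction. Of 20, KRT5 was higher in all 3 pairs, KIT and ERBB3 were lower, and the median was -0.10 (log2), beside -0.20 over all genes. KIT, the stem cell factor receptor, was at 4.04 and 6.57 CPM in KK and WK and at 0.28, 3.87 and 0.34 CPM in KA, WA and WC. It passed the filter only through WK. ERBB2, known as an AP-2 target in breast cancer, was at 82.0 and 84.9 CPM in KK and KA and at 169, 122 and 77.4 CPM in WK, WA and WC. CDH1, which encodes E-cadherin, was at 831 and 434 CPM in KK and KA and at 571, 708 and 272 CPM in WK, WA and WC.

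Among 13 epithelial-mesenchymal genes 3 were higher and 1 lower, with the adhesion molecule L1CAM (15.1 and 6.69 CPM in KK and WK against 53.7, 79.9 and 17.99 CPM in KA, WA and WC) and the actin-binding TAGLN (20.1 and 4.36 CPM against 64.6, 21.3 and 42.5 CPM) past 1.5-fold. For both, the lowest AP-2 library lay only just above KK. Of 14 chemokines and cytokines 4 were higher and 0 lower, among them LIF (3.42 and 2.98 CPM against 9.51, 8.24 and 19.1 CPM). LIF passed the filter only through AP-2 libraries. Of 26 WNT genes 8 were higher and 7 lower, and of 26 glutathione and NRF2 genes 7 and 3. Higher and lower members numbered 1 and 3 of 16 tight junction genes, 1 and 1 of 12 Eph receptors and ephrins, 1 and 2 of 26 interferon-stimulated genes, 2 and 5 of 19 p53 targets, 1 and 5 of 24 genes of glycolysis and hypoxia, and 0 and 0 of 8 heat shock genes. The AP-2 cofactors and relatives (9 genes with TFAP2A, TFAP2C and WWOX) had 1 of each, KCTD15 higher and WWOX lower.

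**Figure D3:**
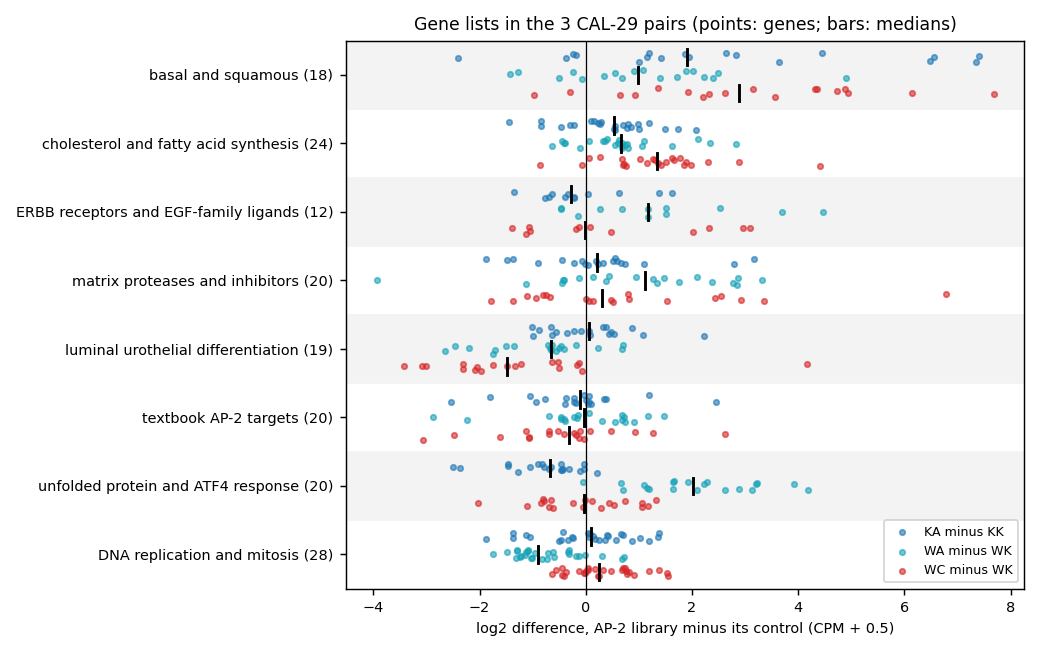
log2 difference (CPM + 0.5) of each list member between the AP-2 library and its control (horizontal axis) for 8 gene lists (rows, members tested in brackets), 1 point per gene and pair, with black bars at the medians. The medians of the basal and squamous genes lie to the right of 0 in all 3 pairs, those of the luminal genes to the left in WA/WK and WC/WK (-0.65 and -1.48), and those of the unfolded protein genes on opposite sides in KA/KK (-0.67) and WA/WK (2.01).

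The pairs KA/KK and WA/WK largely ran in opposite directions. WA/WK sets a library near the KK level of WWOX (69.3 CPM) against 1 with more (155 CPM). WC/WK does the same, with 62.4 CPM in WC. KA/KK and WA/WK share no library, and 8163 of 12078 genes (67.6%) had opposite signs in them. Across genes, which are not independent replicates, Pearson's r between these differences was -0.38, and between KA/KK and WC/WK 0.39 (n = 12078 for each). Only 35.9% of genes were higher in KA/KK and 27.3% in WC/WK, against 64.1% in WA/WK. At 1.5-fold, 2230 genes were lower in KA/KK and higher in WA/WK and 270 the reverse (1414 and 820 after TMM scaling). KK and WA had the highest TMM factors (1.15 and 1.18, against 0.91, 1.03 and 0.79 in KA, WK and WC). Their median CPM over all genes was also highest (14.97 and 15.33, against 9.62, 12.04 and 8.10). The part of these library-wide differences in the opposite signs was not tested.

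Chaperones and stress response genes carried some of the largest opposite values. HSPA5, which encodes the chaperone BiP of the endoplasmic reticulum, stood at 6321 and 3903 CPM in KK and KA, but at 373 CPM in WK, 6795 CPM in WA and 406 CPM in WC. HSP90B1 stood at 2740 and 482 CPM in KK and KA and at 198, 3030 and 243 CPM in WK, WA and WC. KK and WA were thus the libraries with high values of both. Of 20 unfolded protein and ATF4 genes, 19 were higher in WA/WK (median 2.01), 9 in WC/WK and 1 in KA/KK (median -0.67), and only SDF2L1 was higher in all 3. Genes of DNA replication and mitosis had the reverse pattern, with 3 of 28 higher in WA/WK (median -0.89), 17 in KA/KK and 19 in WC/WK. BIRC5 (survivin) was at 40.2 and 92.8 CPM in KK and KA and at 96.5, 38.7 and 220 CPM in WK, WA and WC. Both lists therefore separate WA/WK from the other pairs rather than the AP-2 libraries from the controls.

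Gene span moved with the same contrast. With the 12064 genes of known position split into 4 equal bins of genomic span, the median log2 difference in KA/KK went from 0.11 in the shortest (up to 11.3 kb) to -0.85 in the longest bin (from 73.0 kb), and in WC/WK from -0.17 to -0.61, whereas in WA/WK it went from 0.01 to 0.40. The lower 1.5-fold genes had a median span of 74.2 kb and the higher ones of 13.5 kb, against 30.0 kb over all genes. Of the longest bin 2.98% were lower by 1.5-fold in all 3 pairs and of the shortest bin 1.06%, while 0.597% and 2.06% were higher. The part of gene span in the counts was not tested.

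**Figure D4:**
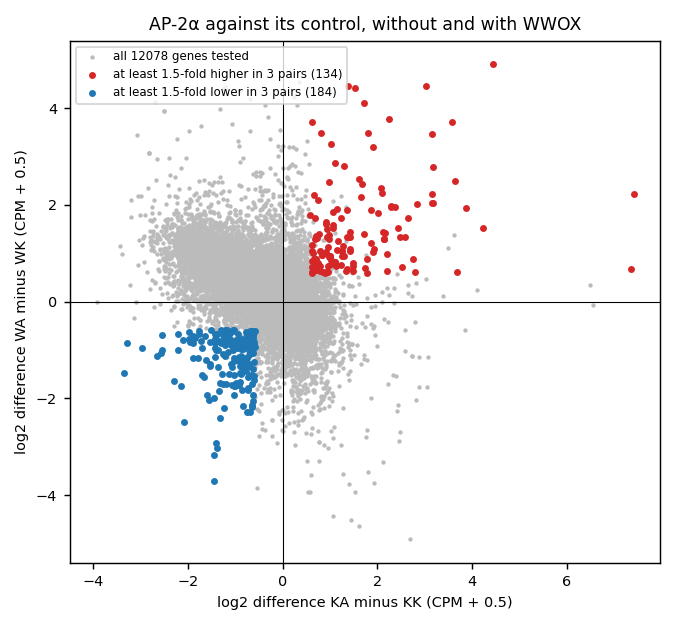
log2 difference (CPM + 0.5) of KA minus KK (horizontal axis) and WA minus WK (vertical axis) for the 12078 genes tested, 1 point per gene. Most points run from upper left to lower right (r = -0.38), and the 134 higher genes (red) and 184 lower genes (blue) that passed 1.5-fold in all 3 pairs occupy the corners of equal sign.

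The direction of these genes in the other lines was read in the same 3 pairs. Of the 134 higher genes, 32 (23.9%) were higher in all 3 pairs of RT-112 and 33 (24.6%) in those of HT-1376, beside 20.8% and 25.6% of all genes tested. Of the 184 lower genes, 45 (24.5%) were lower in all 3 pairs of RT-112 and 6 (3.26%) in HT-1376, beside 22.1% and 8.78%. The shares were thus near those of all genes, apart from the lower genes in HT-1376, which were under them. In KA/KK alone, 104 of the 134 higher genes (77.6%) were higher in HT-1376, beside 68.0% of all genes, and 80 (59.7%) in RT-112, beside 51.6%. In WA/WK they were under all genes in both lines, with 67 of 134 (beside 60.9%) in HT-1376 and 58 (43.3%, beside 49.1%) in RT-112. In WC/WK they numbered 70 (52.2%, beside 49.8%) in HT-1376 and 55 (41.0%, beside 44.6%) in RT-112.

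In all 9 pairs of the 3 lines, 10 of the 134 genes were higher, namely CPA4, EMSLR, GALNT6, KLK8, L1CAM, LEMD1, P2RY6, S100A14, SLURP2 and STEAP4. Of the 184, 4 were lower, namely ACTR3C, LRRC20, PYROXD2 and SOWAHB. Not all of these signs carry weight. S100A14 was at 444.04 and 444.53 CPM in WK and WA of HT-1376. SLURP2 was at 0 and 0.06 CPM and EMSLR at 0.07 and 0.34 CPM in KK and KA of HT-1376. STEAP4 was at 0.05 to 0.47 CPM in the RT-112 pairs. Over all 12078 genes, 30 were higher and 63 lower in all 9 pairs. The CAL-29 pairs of the 134 and 184 genes were fixed by their choice, so these counts cannot be compared directly with those over all genes. KLK8 was at 10.9 and 23.8 CPM in KK and WK of RT-112 and at 64.8, 57.5 and 71.2 CPM in KA, WA and WC. In HT-1376 it was at 3.09 and 36.0 CPM against 21.5, 54.3 and 87.7 CPM, so that KA lay under WK. KLK5 was also higher in RT-112 (1.22 and 5.99 CPM against 35.9, 76.3 and 112.07 CPM), but in HT-1376 only in KA/KK and WA/WK (1.84 and 66.1 CPM against 26.7, 69.9 and 46.7 CPM). SPRR1B ran the other way with WWOX in both lines, at 18.1 CPM in WK against 2.12 and 1.57 CPM in WA and WC of RT-112, and at 235 CPM against 151 and 168 CPM in HT-1376.

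Whether the AP-2 difference of CAL-29 departs from that of the other lines was tested by an interaction in limma over 17 libraries (12991 genes). The AP-2 terms of RT-112 and HT-1376 included their KC libraries, and that of CAL-29 did not. A difference between lines is therefore mixed with the balance of AP-2α and AP-2γ. No gene passed (0%, lowest adjusted p 0.0592, 1181 genes at an unadjusted p under 0.05). SULF2 had the lowest p, with a CAL-29 difference of 3.96, -0.32 in RT-112 and 0.73 in HT-1376, which gives 3.76 ± 0.51 (SE, log2, adjusted p = 0.0592 in limma). It was at 8.52 to 20.4 CPM in the 6 RT-112 libraries and in HT-1376 at 0 and 0.40 CPM in KK and WK and 0.28 and 1.15 CPM in KA and WA. Of the genes with the next lowest p in the higher direction, KANK4 was listed at 0 or 1 read in all 12 libraries of the other lines and ADAM19 was at 5.79 to 25.5 CPM there. SOX2, at 4.53 to 48.6 CPM in CAL-29, was at 0 to 0.99 CPM in the other lines, so that its interaction (-2.60 ± 0.50, SE, adjusted p = 0.212) compares CAL-29 with lines that hardly express it. SULF2 and ADAM19 are named here after their p was seen.

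**Figure D5:**
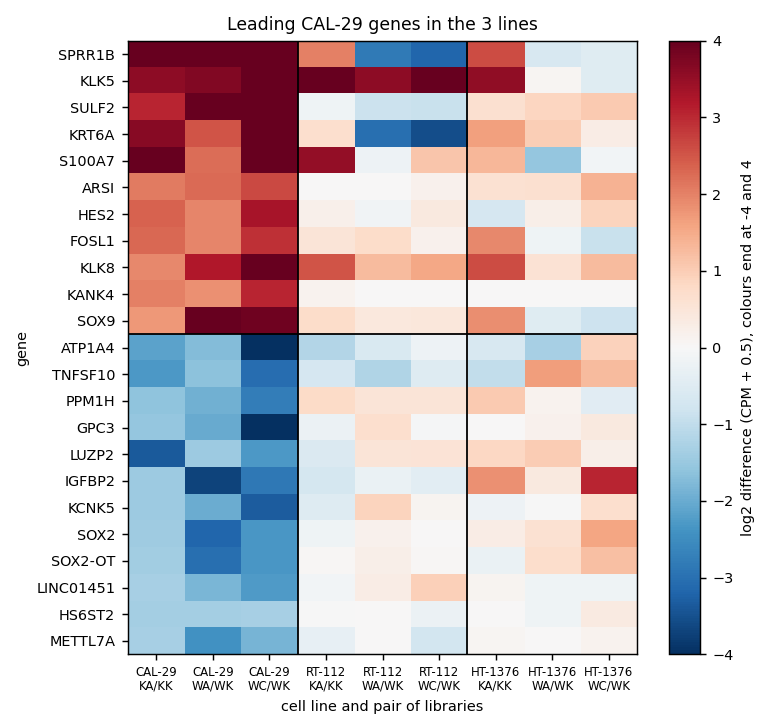
log2 difference (CPM + 0.5) between the AP-2 library and its control (colour, red higher and blue lower, ending at -4 and 4) for 23 of the 24 leading CAL-29 genes (rows) in 3 pairs of each cell line (columns). The CAL-29 columns were chosen to be of 1 sign, whereas in RT-112 and HT-1376 the colours are mixed, with KLK8 red in all 9 columns.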

How the data were processed

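CAGE-seq libraries of CAL-29 bladder cancer cells were grouped by their labels. Per the study's methods and the labels, 75 nt reads were aligned to hg38 (BWA, then HISAT2 2.0.5) and clustered, and the authors deposited a table of CPM values per gene and library. The annotation and the total behind the CPM are not given in the sources used here. In the 5 libraries, 99.97% to 99.99% of deposited CPM values equalled a whole number of reads (within 0.109 to 0.112 reads, against 20.6% to 21.4% with a wrong step), so read counts were recovered for limma-voom, edgeR and DESeq2, which were alternatives. Per-sample files hold the same values as the table and were not used. Names and positions were taken from GENCODE 44 (16553 of 16575 genes), and promoters from RefSeq GRCh38.p14.

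Differences were computed on log2(CPM + 0.5), which understates those of genes with low values, and the filter kept genes that reached 5 CPM in any of the 5 libraries. The AP-2 effect was fitted with limma 3.58.1 in R 4.3.3 on 5 libraries with a term for WWOX (2 residual degrees of freedom, trended empirical Bayes variance, Benjamini-Hochberg adjustment over all genes, threshold 0.05). AP-2α and AP-2γ libraries formed 1 AP-2 group. The interaction was fitted on 17 libraries with separate WWOX and AP-2 terms in each line. Nothing in the labels says that libraries came from separate cultures. Each variant of a line had 1 library, so no SE or p-value measures the spread between repeats of a variant. In the fit on 5 libraries, the residual spread came from WA against WC (AP-2α against AP-2γ) and from KA/KK against the pairs with WWOX. Such differences between variants cannot be told apart from noise between libraries, and the interaction fit has the same limit. The fit was tested on simulated data with known changes. The results were recomputed with 0.05 and 2 CPM as pseudocount, without the filter, with 5 CPM in 3 libraries, TMM, quantile normalization, no WWOX term, voom, edgeR 4.0.16, DESeq2 1.42.0, a 2-fold limit, each library left out and the library labelled KC included, and for the interaction also KC left out of every line and 1 WWOX term.

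The genes named were TFAP2A, TFAP2C and WWOX, the 12 higher and 12 lower genes with the largest smallest difference of the 3 pairs (at least 5 CPM in each library of the higher side), up to 6 genes per direction past the interaction test, and list members 1.5-fold different in all 3 pairs or with the lowest p of their list. Some genes within these rules are not reported here. Other list members are named as examples after their values were seen. The genes and lists were chosen with earlier results of these data known. Gene span is end minus start in GENCODE. Python 3.11.15, NumPy 2.4.6, pandas 2.3.3, SciPy 1.17.1 and matplotlib 3.10.9 were used.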

Additional observations from a re-analysis of the deposited data

Results flagged for a closer look

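Of the 24 leading genes, 6 ran one way in all 3 CAL-29 pairs and the other way in all 3 pairs of another line, 1 higher gene in RT-112, 2 lower genes in RT-112 and 3 lower genes in HT-1376. Over all genes, 22.1% were lower in all 3 pairs of RT-112 and 8.78% in HT-1376, and 20.8% and 25.6% were higher, and none of the shares of the leading genes that ran the other way was above these. The interaction test of each difference (limma, CAL-29 minus the mean of the other lines, log2) missed the threshold. The 6 genes were picked from the same values, for large CAL-29 differences and then for the opposite sign in another line. The sizes and p-values below are therefore favoured by this choice and are no support for a difference between lines. SULF2, lower by 0.18 to 0.89 in the pairs of RT-112, differed by 3.76 (SE 0.51, adjusted p = 0.0592). PPM1H, higher by 0.51 to 0.75 in RT-112, differed by -2.64 (SE 0.49, adjusted p = 0.203). LUZP2, higher by 0.24 to 1.01 in HT-1376, differed by -2.80 (SE 0.61, adjusted p = 0.268). IGFBP2, higher by 0.38 to 3.06 in HT-1376, differed by -3.18 (SE 0.76, adjusted p = 0.278). SOX2, higher by 0.31 to 1.58 in HT-1376 at 0.99 CPM or less, differed by -2.60 (SE 0.50, adjusted p = 0.212). SOX2-OT, higher by 0.04 to 0.22 in RT-112 at 0.47 CPM or less, differed by -2.38 (SE 0.47, adjusted p = 0.212).

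The library labelled CAL-29 KC, which no comparison above uses, held 46 of 47 HT-1376 markers.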

How the results depend on the processing

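The calls of the AP-2 effect stayed at 0 under both pseudocounts, both filters, both scalings, without the WWOX term, in voom and edgeR and with the library labelled KC, and went to 52 with DESeq2. Leaving out 1 library gave 0 to 238 calls, the highest without WA and 19 without KK, 11 without KA, 6 without WK and 0 without WC, each on 1 residual degree of freedom. The genes higher in all 3 pairs (1097) came to 1718 with TMM, 1653 with quantile normalization and 615 with the library labelled KC, and with 1 library left out, which leaves 2 pairs, to 1921 to 2159. The genes lower in all 3 pairs (1736) came to 1940 to 6353 with 1 library left out, the highest without WA. The 134 genes higher by 1.5-fold came to 67 with the library labelled KC, 51 at 2-fold and 163 to 417 with 1 library left out (417 without KK, 415 without KA, 322 without WA), and the 184 lower ones to 115 with 5 CPM in 3 libraries, 41 at 2-fold and 204 to 2521 with 1 library left out (2521 without WA, 719 without KA, 715 without KK). Without WK 1 pair is left and no such count was made. The interaction calls (0) came to 1 with a pseudocount of 2 CPM, 6 without a filter, 1 with TMM and 4 with quantile normalization. The causes were not tested. All of the 72 named genes but TFAP2A, TFAP2C and WWOX were chosen for 1 sign in all 3 pairs. Other settings on the same libraries could therefore hardly reverse them, and their direction is no support for an AP-2 effect. Under 16 alternatives, 1116 of 1123 values kept their direction. The exceptions were TFAP2A (-0.23 to 0.49 with 1 library left out, negative without KK, KA or WA), TFAP2C (-0.32 to 0.82, negative without WK or WC), and with the library labelled KC KRT17 (-0.29) and DKK1 (-0.038). On simulated data the limma fit called 0 of 89 2-fold and 37 of 111 4-fold changes. In the 5 libraries it called no gene of any size, SPRR1B (5.503, log2) included. With 1 library per variant, differences of 2-fold and many larger ones are thus beyond this fit, and genes near 3 reads (0.164 to 0.169 CPM) have no reliable fold.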
